A study of Mus musculus with 8 samples.

Results

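The 8 S100 genes S100a1, S100a4, S100a6, S100a8, S100a9, S100a10, S100a11 and S100a13 were taken by symbol from the deposited RNA-seq tables, 8 of the 17740 genes listed for mice on a high-fat diet (HFD) and of the 16436 listed for mice on a normal chow diet (ND). The libraries came from epididymal white adipose tissue (eWAT) of wild-type (WT) C57BL/6J male mice, and no group carried an engineered allele. After collagenase digestion, macrophages that floated with the adipocyte layer were sorted as adhesion-related macrophages (ARMs), and those in the stromal vascular fraction were sorted as SVF macrophages (SMs, called NARM in the sample titles). Each of the 4 groups (HFD ARM, HFD SM, ND ARM, ND SM) had 2 libraries, made from pools of 6 mice in HFD and 10 mice in ND. The HFD lasted 8 weeks from 6 weeks of age, and the age of the ND mice at collection was not given in the sources used here. The question was whether S100 genes differed between macrophages held at adipocytes and those of the stroma, in lean and obese tissue.

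S100 proteins are small EF-hand proteins that bind calcium, usually as dimers, and then expose a surface that docks onto target proteins. Inside cells they regulate annexins, the cytoskeleton and calcium handling. Some leave the cell without a signal peptide and act as alarmins on receptors such as TLR4 and RAGE. S100A8 and S100A9 together form calprotectin, a metal-binding antimicrobial complex abundant in neutrophils and monocytes and low in most tissue macrophages.

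All 8 genes lie on mouse chromosome 3 (GRCm38, which is mm10, the build in the submitters' processing notes; GENCODE annotation). S100a1 (chr3:90511034-90514392, minus strand) and S100a13 (chr3:90514435-90524581, plus strand) stand head to head, 42 bases apart. They are followed by S100a4 (chr3:90603771-90606045, plus), S100a6 (chr3:90612882-90624181, plus), S100a8 (chr3:90668978-90670035, plus) and S100a9 (chr3:90692632-90695721, minus). These 6 genes span 185 kb. S100a11 (chr3:93520488-93526287, plus) and S100a10 (chr3:93555080-93564643, plus) form a second group 2825 kb further on, within 44.2 kb. Their transcripts are short, from 336 to 731 bases in 2 to 4 exons. S100a1 and S100a13 overlap by 98 bases in the RefSeq models but share 0 exon bases in GENCODE. Whether strand was used in counting was not given in the sources used here, so reads in that overlap could not be assigned with certainty.

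The promoter windows of 4 members are shown because these genes carried the ARM against SM results below, as the pair S100a4 and S100a6 and the pair S100a8 and S100a9. Each is 300 bases from RefSeq (GRCm38.p6), 250 before to 50 after the annotated start, written 5′ to 3′ on the gene's strand. Capitals mark matches, on either strand, to TATAAA (the TATA box), TGANTCA (AP-1), CCAAT (the CCAAT box), GGGCGG (the GC box), GAGGAAG (an ETS type) and TTGCNNAA (a C/EBP type).
S100a4, chr3:90603520-90603819, plus strand: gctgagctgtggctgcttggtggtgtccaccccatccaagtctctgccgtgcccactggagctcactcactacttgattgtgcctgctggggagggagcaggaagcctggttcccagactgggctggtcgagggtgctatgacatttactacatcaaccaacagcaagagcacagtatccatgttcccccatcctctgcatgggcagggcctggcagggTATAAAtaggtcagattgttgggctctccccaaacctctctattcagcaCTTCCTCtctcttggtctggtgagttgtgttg
S100a6, chr3:90612644-90612943, plus strand: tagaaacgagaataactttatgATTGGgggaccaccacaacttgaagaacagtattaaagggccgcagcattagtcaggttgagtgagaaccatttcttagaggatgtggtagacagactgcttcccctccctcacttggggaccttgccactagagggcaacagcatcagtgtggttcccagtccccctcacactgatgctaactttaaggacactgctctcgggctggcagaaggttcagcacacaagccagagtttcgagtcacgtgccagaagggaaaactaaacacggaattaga
S100a8, chr3:90668821-90669120, plus strand: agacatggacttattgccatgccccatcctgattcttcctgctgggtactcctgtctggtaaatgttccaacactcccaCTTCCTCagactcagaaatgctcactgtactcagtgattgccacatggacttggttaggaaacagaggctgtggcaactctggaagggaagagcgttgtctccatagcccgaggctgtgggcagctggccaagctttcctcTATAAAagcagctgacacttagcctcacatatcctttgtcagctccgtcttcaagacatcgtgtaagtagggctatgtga
S100a9, chr3:90695672-90695971, minus strand: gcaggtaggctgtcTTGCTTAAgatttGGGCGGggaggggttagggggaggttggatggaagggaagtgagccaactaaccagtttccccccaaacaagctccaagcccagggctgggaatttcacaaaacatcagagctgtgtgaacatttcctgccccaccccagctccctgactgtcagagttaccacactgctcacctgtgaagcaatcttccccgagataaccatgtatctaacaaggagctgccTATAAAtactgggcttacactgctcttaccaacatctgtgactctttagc
TATAAA, the core of the TATA box, began at -31 from the start of S100a4, at -30 from that of S100a8 and at 0 in S100a9. The S100a6 window had no TATAAA and a single CCAAT at -228. TATAAA occurs in 13.6% of the 32851 promoter windows of the RefSeq table and CCAAT in 37.4%. GAGGAAG, an ETS-type motif, was found in S100a4 at 18 and in S100a8 at -171, against 13.6% of all windows. The S100a9 window alone of these 4 had TTGCNNAA, at -236, against 10.8% of all windows. It also had a GGGCGG at -223, a GC box letter string held by 35.7% of windows. TGANTCA, the AP-1 motif, was in none of the 4 and in 7.81% of all windows. A match is a string of letters in this window and was not tested as a binding site. Of the 8 members 7 had a RefSeq window, the exception being S100a10. No motif was found in S100a1 or S100a13, whose windows share 204 bases.

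The libraries held 18288775 to 19040133 estimated counts in HFD and 14508824 to 16319038 in ND. Member counts ran from 7 to 7315 per library, and all 64 of them were whole numbers. Replicates differed by more than counting noise (chi-square averaged over genes, 4.21 in HFD ARM, 5.86 in HFD SM, 10.1 in ND ARM and 7.89 in ND SM), so no library was a second copy of another. Of 12 macrophage markers all 12 were tested in both diets, and their summed level was 19773 to 22869 CPM (counts scaled to library size, TMM-normalized) in HFD and 23953 to 25244 CPM in ND. The labels do not say that libraries came from separate experiments beyond their pools, so p-values measure the spread between these libraries. Markers of other cells were read from calls at a fold over 1.5 and adjusted p under 0.05 by the quasi-likelihood test of edgeR, adjusted after Benjamini and Hochberg. In HFD and ND respectively, 4.46% and 3.55% of all genes tested were called higher in ARMs and 0.292% and 0.129% lower. Called higher were 11 and 10 of 12 adipocyte markers, 5 and 10 of 12 fibroblast and progenitor markers and 0 and 5 of 8 mesothelial markers. So were 10 and 0 of 10 endothelial markers, and 3 of 8 and 2 of 7 tested pericyte and smooth muscle markers. Of T and NK cell markers, 2 of 5 tested in HFD (Cd4 and Il7r) and 0 of 3 tested in ND were called higher. The others tested in HFD were Klrb1c (log2 fold change 0.86), Lck (-0.58) and Cd8a (-0.23), while Cd3e, Cd3d and Cd3g did not pass the filter. None of the markers of these lists was called lower, and no dendritic, B, mast cell or macrophage marker was called. At the adjusted p alone, the macrophage markers Lyve1 (log2 fold change -0.58, adjusted p = 0.00134) and Cd163 (-0.39, adjusted p = 0.0107) and the dendritic cell marker Cd209a (-0.48, adjusted p = 0.00101) were lower in HFD ARMs, by edgeR. The summed adipocyte markers stood at 603 to 649 CPM in HFD ARMs against 165 to 189 CPM in HFD SMs, and at 329 to 529.8 CPM in ND ARMs against 187 to 238 CPM in ND SMs. The part of these markers in the S100 values was not tested. In sorted bulk samples, fewer cells of a type and less RNA per cell cannot be told apart.

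Levels between genes were compared as FPKM (fragments per kilobase and sequencing depth), which accounts for transcript length. S100a10 and S100a4 were the most abundant in every group and S100a8 the least. In HFD ARMs the mean FPKM fell from S100a10, 526 ± 2.62 (SD, n = 2), to S100a4, 360 ± 15.9, S100a6, 193 ± 1.98, S100a11, 184 ± 4.85, S100a1, 59.1 ± 4.21, S100a13, 51.6 ± 0.643, S100a9, 6.81 ± 1.83, and S100a8, 3.16 ± 0.622. Each gene's libraries lay above those of the next. The same order held in HFD SMs. In ND ARMs S100a11 (mean FPKM 150.1 ± 12.5) stood above S100a6 (129 ± 14.4), the reverse of HFD ARMs, while in ND SMs it stood below (libraries at 121.0 and 137 against 189 and 166). The gene length that FPKM implies was larger in the HFD table, by 1.34 times for S100a11 and 1.22 times for S100a6. Diet and table therefore cannot be told apart in this reversal. Neighbours overlapped in 2 cases: S100a10 and S100a4 in ND SMs, with mean FPKM of 444 ± 33.3 and 431 ± 31.4, and S100a9 and S100a8 in ND ARMs, with 12.5 ± 7.93 and 5.47 ± 5.20.

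**Figure D1:**
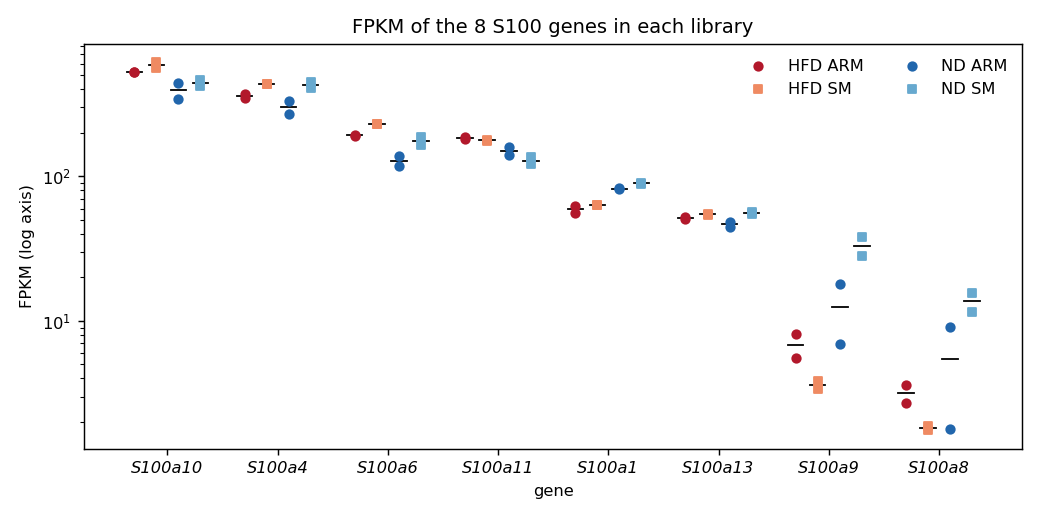
FPKM (log axis) of the 8 S100 genes in each library, by diet and cell type. Points are libraries and bars the mean of 2 libraries per group. S100a10 and S100a4 sit highest in all groups, while S100a9 and S100a8 sit lowest and vary most between groups.

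S100a4 and S100a6, which lie 6.84 kb apart with S100a5 between them, were lower in ARMs than in SMs in both diets. S100a4 (metastasin, also called fibroblast-specific protein) binds nonmuscle myosin and is used as a marker of fibroblasts and of motile cells, but is also made by macrophages. Its FPKM was 349 and 371 in the HFD ARM libraries against 439 and 436 in the HFD SM libraries. In ND it was 331 and 270.3 in ARMs against 454 and 409 in SMs. In each diet the 2 SM libraries were the higher ones, without overlap. The decrease was 19.4% in HFD (log2 fold change -0.31, SE 0.06, adjusted p = 0.0114) and 31.0% in ND (-0.54, SE 0.11, adjusted p = 0.00885), by the quasi-likelihood test of edgeR, adjusted after Benjamini and Hochberg, both under the fold of 1.5 needed for a call. S100a6 (calcyclin), a partner of annexins and of the calcyclin-binding protein, had FPKM of 192 and 195 in HFD ARMs against 229 and 232 in HFD SMs. In ND the values were 139 and 118 in ARMs against 189 and 166 in SMs. Again no ARM library reached an SM library. S100a6 fell by 0.28 on the log2 scale in HFD (SE 0.06, adjusted p = 0.0170) and by 0.47 in ND (SE 0.11, adjusted p = 0.0205) by the same edgeR test. These were the only 2 of 8 members past adjusted p in HFD, where 3.02% of all genes tested were lower at that threshold and 0.292% were called lower. No member was higher at the adjusted p in HFD or ND, where 6.53% and 4.28% of all genes were. None of the 8 members was called in HFD by edgeR, although S100a4, S100a6, S100a9 and S100a10 had an unadjusted p under 0.05, and DESeq2 called 0 of them too.

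Both genes lost adjusted p under 0.05 without HFD ARM replicate 1 (S100a4 adjusted p = 0.159, S100a6 0.159) or without HFD ARM replicate 2 (0.114 and 0.197), by edgeR. In ND both lost it without ND ARM replicate 2 (0.175 and 0.268) or without ND SM replicate 1 (0.0798 and 0.238), and direction was kept in each. Over 15 settings, the one reported included, the adjusted p ran from 0.00153 to 0.159 for S100a4 and from 0.00963 to 0.197 for S100a6 in HFD, and from 2.88e-08 to 0.323 and 7.11e-06 to 0.325 in ND, with each gene past the test in 10 of 15. The settings in which both missed it included limma with no filter in HFD and all 3 limma fits in ND. The lowest ND values of both genes came from the fit with a replicate block. The labels do not say that a replicate number marks a shared pool or day.

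S100a10, S100a11, S100a13 and S100a1 did not pass the test in either diet, by edgeR with Benjamini-Hochberg adjustment. S100a10 (p11) is the light chain of the annexin A2 tetramer that gathers plasminogen at the cell surface, and unlike its relatives it does not respond to calcium. Its FPKM was 528 and 524 in HFD ARMs against 615 and 559 in HFD SMs, the ARM libraries below. In ND, 446 and 343 overlapped with 468 and 421. The fold change was -0.19 (SE 0.07, adjusted p = 0.114) in HFD and -0.18 (SE 0.12, adjusted p = 0.551) in ND on the log2 scale. S100a11 (calgizzarin), a partner of annexin A1, had FPKM of 180.3 and 187 in HFD ARMs against 179 and 176 in HFD SMs, and 141 and 159 in ND ARMs against 121 and 137 in ND SMs, where both ARM libraries were above. Its log2 fold changes were 0.02 (SE 0.06, adjusted p = 0.905) and 0.21 (SE 0.11, adjusted p = 0.446). S100a13, which helps export FGF1 and interleukin-1α, had FPKM of 51.1 and 52.0 in HFD ARMs against 55.4 and 54.0 in HFD SMs. In ND the FPKM values were 48.6 and 44.4 in ARMs against 56.5 and 55.3 in SMs. The ARM libraries were below in both diets, with log2 fold changes of -0.12 (adjusted p = 0.367) and -0.27 (adjusted p = 0.274). S100a1, known from muscle for acting on calcium release, had FPKM of 56.1 and 62.1 against 63.1 and 63.9 in HFD and 83.2 and 81.8 against 88.8 and 90.2 in ND, ARMs below SMs in both. Its log2 fold change was -0.13 in HFD and in ND (adjusted p = 0.335 and 0.678).

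**Figure D2:**
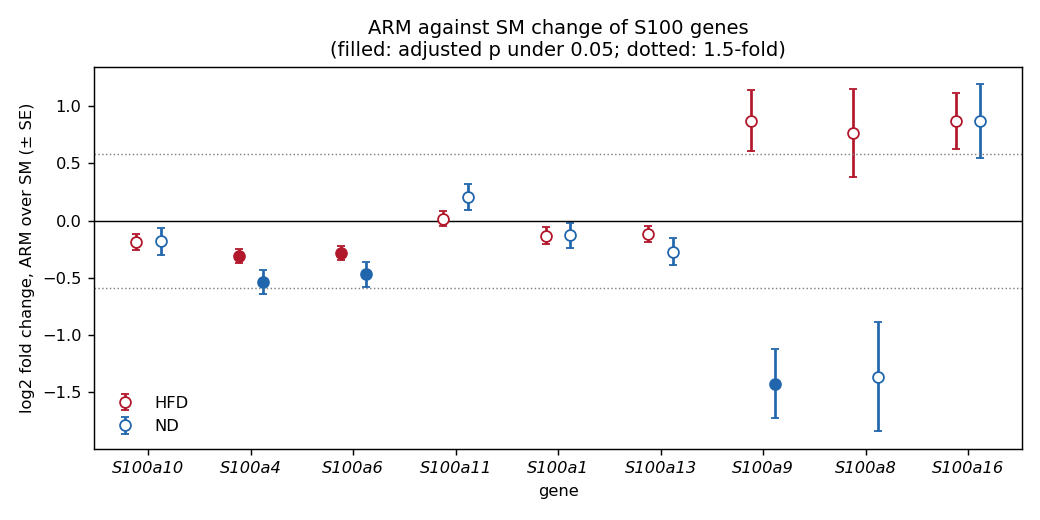
Log2 fold change of ARM over SM with its standard error from the edgeR fit for the 8 members and S100a16, in HFD (red) and ND (blue). Filled points have an adjusted p under 0.05 and dotted lines mark a 1.5-fold change. S100a4 and S100a6 are filled in both diets and S100a9 in ND only, and the S100a8 and S100a9 points change side between diets.

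S100a8 and S100a9, the calprotectin pair 22.6 kb apart on opposite strands, lay on opposite sides in the 2 diets. S100a9 counts were 50 and 73 in the HFD ARM libraries against 36 and 32 in the HFD SM libraries. In ND they were 42 and 98 in ARMs against 211 and 169 in SMs. On the CPM scale this was 2.71 and 3.92 against 1.91 and 1.70 in HFD, and 2.56 and 6.80 against 14.2 and 10.6 in ND. ARMs were thus above in HFD and below in ND, without overlap. The ND decrease of 62.8% (log2 fold change -1.43, SE 0.30, adjusted p = 0.0119) was called by edgeR's quasi-likelihood test, and S100a9 was the only member called, 1 of 8 against 0.129% of all genes tested called lower in ND. At the adjusted p alone, 3 of 8 members were lower in ND against 0.458%. In HFD the log2 change was 0.87 (SE 0.27, adjusted p = 0.0677, edgeR), not past the test. S100a8 counts were 24 and 18 in HFD ARMs against 13 and 12 in HFD SMs, and 7 and 32 in ND ARMs against 57 and 45 in ND SMs, also without overlap. Its log2 fold changes were 0.77 (SE 0.38, adjusted p = 0.268) and -1.36 (SE 0.48, adjusted p = 0.144) by edgeR, neither past the test. Without ND ARM replicate 1, which had the fewest counts of both genes in ND, the S100a9 change was -0.87 and was no longer called (adjusted p = 0.0516, edgeR), and that of S100a8 was -0.58 (adjusted p = 0.418). Without ND ARM replicate 2 it was -2.27, and S100a8 passed (-2.94, adjusted p = 0.0148, edgeR). Limma on log2(FPKM + 1), with an adjusted p of 0.0611, did not call S100a9 in ND, and over 15 settings, the one reported included, it passed in 11. DESeq2 called it (adjusted p = 0.00643).

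Subtracting the ND change from the HFD change gave 2.29 for S100a9 (SE 0.50, unadjusted p = 0.000503, adjusted p = 0.104) and 2.12 for S100a8 (SE 0.74, adjusted p = 0.423) on the log2 scale, by edgeR's interaction test on all 8 libraries. Neither passed, against 0.165% of all genes that did. DESeq2 called S100a9 here (adjusted p = 0.00883). Single ND libraries moved these values. Without ND ARM replicate 1 the difference was 1.76 for S100a9 (adjusted p = 0.0378) and 1.37 for S100a8 (adjusted p = 0.374), and without ND ARM replicate 2 it was 3.14 (adjusted p = 0.00353) and 3.70 (adjusted p = 0.0246), by edgeR. For the other 6 members the difference lay between -0.20 and 0.21, with adjusted p from 0.809 to 0.992. With 2 libraries against 2, the smallest p an exact permutation test can give is 0.333, so no single gene could pass such a test.

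The ratio of S100a9 to S100a8 FPKM was 1.53, 2.98, 2.03 and 1.94 in HFD ARM 1, HFD ARM 2, HFD SM 1 and HFD SM 2, and 3.88, 1.99, 2.41 and 2.45 in ND ARM 1, ND ARM 2, ND SM 1 and ND SM 2. Summed, the pair took 4.01, 4.89, 2.60 and 2.34 CPM in HFD and 2.99, 9.02, 18.1 and 13.5 CPM in ND. Over the 12343 genes tested in both diets, the patterns most like S100a8 (root-mean-square difference of log2 CPM over 8 libraries, each gene centred within each diet, so that differences between diets do not enter) were Cxcr2 (0.37), Poln (0.41) and Flt3 (0.43). For S100a9 they were Adarb2 (0.35), Cxcr2 (0.39) and Poln (0.41). In ND, Cxcr2, Poln and Flt3 were low mainly in ARM replicate 1, at 0.552, 0.183 and 0.549 CPM. Their other ND libraries were at 1.73 to 1.90, 0.606 to 0.755 and 2.22 to 2.57 CPM. Flt3 had a log2 fold change of -0.17 in HFD, on the other side from S100a8. Adarb2 lay on the same sides as S100a9 in both diets, at 0.244 to 0.755 CPM in ND. S100a8 and S100a9 themselves differed by 0.30, less than either did from any gene outside the 8 members.

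Neutrophils and monocytes are the classical sources of S100a8 and S100a9, so their markers were set beside them. In a flow cytometry legend the study defined adipose tissue macrophages as CD45+CD11b+F4/80+ cells. Neutrophils are known to lack F4/80, but whether any passed the sort into these libraries was not tested. Of 17 neutrophil markers, 5 passed the filter in HFD and 8 in ND, and 0 were called in either diet. Of all genes, 4.46% and 3.55% were called higher and 0.292% and 0.129% lower. The median log2 fold change of the markers was 0.22 in HFD and -0.86 in ND. The 2 medians cover different genes, as Retnlg (-1.21), Mmp8 (-1.44) and Cebpe (-1.03) were tested in ND only. The 5 markers tested in both diets had ND changes from -1.01 (Lcn2) to 0.38 (Csf3r). The defining marker Ly6g was at 0 to 0.139 CPM in all 8 libraries, and Camp at 0 to 0.943 CPM. Ngp, a neutrophil granule protein, was at 9.90 CPM in ND SM replicate 1 and at 0 to 0.503 CPM in the other 7 libraries. Ltf, lactotransferrin, was at 4.38 CPM in the same library and at 0 to 0.486 CPM in the rest. Retnlg, another neutrophil gene, was at 0.671 and 1.46 CPM in ND ARMs against 2.22 and 2.64 CPM in ND SMs (log2 fold change -1.21, SE 0.40, adjusted p = 0.116, edgeR), and at 0.111 to 0.274 CPM in HFD. Cxcr2, a chemokine receptor of neutrophils, was at 7.0 to 9.35 CPM in HFD and 0.552 to 1.90 CPM in ND. Without ND SM replicate 1 the S100a9 change in ND was -1.21 by edgeR, from a fit with 1 SM library. Whether the neutrophil markers bear on that change was not tested. The summed neutrophil list was 229 to 281 CPM in HFD ARMs, 218 to 236 CPM in HFD SMs, 506 to 850.0 CPM in ND ARMs and 558 to 742 CPM in ND SMs. Left to the markers other than Mmp9, Csf3r, Il1r2 and Cxcr2, it was 2.12, 2.70, 2.29 and 1.71 CPM in HFD and 2.62, 5.20, 23.4 and 7.11 CPM in ND, in the library order above. These 4 were set apart after their values were seen, so the sum without them was not chosen in advance. Together they make up most of the full sum, though Cxcr2 by itself is a small part of it. Of the 4, Csf3r had a log2 fold change of 0.38 in ND (adjusted p = 0.0978, edgeR) with both ARM libraries above, and Mmp9 had 0.05 with overlap. Il1r2 had -0.32 with overlap, and Cxcr2 had -0.72 with both ARM libraries below. No neutrophil marker passed the test in either diet, and the part of these markers in the S100a8 and S100a9 values was not tested.

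Of 10 monocyte markers, 9 were tested in each diet, and Cd177 did not pass the filter. In each diet 2 were called higher and 0 lower, where 4.46% of all genes were called higher in HFD and 3.55% in ND. F13a1, a transglutaminase gene of the same list, was lower in HFD ARMs below the fold needed for a call (-0.43, adjusted p = 0.00145, edgeR). Hp, haptoglobin, which adipocytes also make, rose in HFD (2.08) and ND (1.11), Chil3 rose in HFD (0.85, adjusted p = 0.0387) and Vcan rose in ND (0.72, adjusted p = 0.0350), on the log2 scale by edgeR. Chil3, a chitinase-like protein, had a log2 fold change of -0.39 in ND (adjusted p = 0.621, edgeR). Plac8 was at 1.57 and 2.26 CPM in HFD ARMs against 1.06 and 0.745 CPM in HFD SMs, and at 1.77 and 2.15 CPM in ND ARMs against 3.77 and 2.52 CPM in ND SMs, the same change of side as S100a8 and S100a9. It passed no test (adjusted p = 0.0852 in HFD and 0.336 in ND, edgeR). Ly6c2 and Ccr2, which mark inflammatory monocytes, did not pass the test, with log2 fold changes of -0.01 and 0.07 in HFD and -0.53 and -0.14 in ND.

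**Figure D3:**
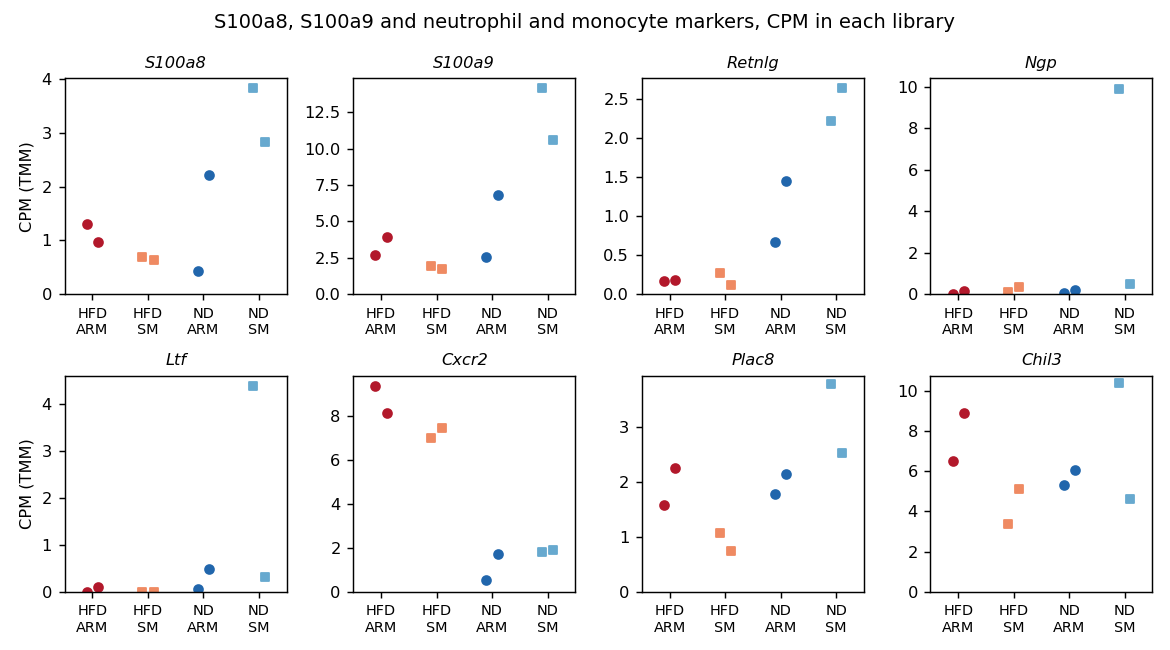
TMM-normalized CPM of S100a8, S100a9 and 6 neutrophil and monocyte markers in each library, with linear axes starting at 0. Points are single libraries, circles ARMs and squares SMs. S100a8 and S100a9 are highest in the ND SM libraries, and Ngp and Ltf are high in one ND SM library alone.

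S100a16, the one other gene of the family that passed the filter, was at 3.74 and 4.03 CPM in HFD ARMs against 2.54 and 1.70 CPM in HFD SMs, and at 3.05 and 3.61 CPM in ND ARMs against 1.35 and 2.26 CPM in ND SMs. Its ARM libraries were above in HFD and in ND, by 0.87 on the log2 scale in each (adjusted p = 0.0526 in HFD and 0.180 in ND, edgeR), not past the test. The other S100 genes listed were near the floor. S100a3, S100a5, S100a7a, S100a14 and S100b had 0 to 9 counts per library and were not tested, and S100a5 was listed in the HFD table only.

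Over the 8 members the median log2 fold change was -0.12 in HFD and -0.37 in ND, against -0.01 and -0.02 over all genes tested. The ARM libraries were both below the SM libraries for 5 members in HFD and both above for 2, where 26.5% and 26.2% of all genes did so. In ND these numbers were 6 and 1, against 22.8% and 21.1%. Summed CPM of the 8 members was 783 and 790.0 in HFD ARMs against 922 and 886 in HFD SMs, and 531 and 464 in ND ARMs against 638 and 584 in ND SMs.

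Receptors and partners of S100 proteins were read in the same fits. They were chosen from their known roles, but with earlier results of these data known. Of 6 receptor genes none was called in either diet. Of all genes, 4.46% in HFD and 3.55% in ND were called higher, and 0.292% and 0.129% lower. Tlr4, the receptor of calprotectin, was lower in HFD ARMs by 0.35 on the log2 scale (SE 0.08, adjusted p = 0.0253, edgeR) and had a value of -0.27 in ND (adjusted p = 0.147). Ager, which encodes RAGE, had log2 fold changes of 0.38 and -0.27, and Bsg, a receptor of S100A9, had -0.05 and -0.15, neither past the test. Of 17 intracellular partners tested, 1 was called higher in HFD and 2 in ND, against 4.46% and 3.55% of all genes. Il1a, whose product leaves the cell with S100A13, was at 94.3 and 101 CPM in HFD ARMs against 54.1 and 58.0 CPM in HFD SMs, and at 144 and 149 CPM in ND ARMs against 66.2 and 62.8 CPM in ND SMs. It rose by 0.80 (adjusted p = 0.000114) and 1.18 (adjusted p = 1.6e-05) on the log2 scale by edgeR. Fgf1, also exported with S100A13, was called higher in ND (1.38, adjusted p = 0.00117), with 0.12 in HFD (adjusted p = 0.727) and a difference between diets that did not pass (-1.27, adjusted p = 0.129, edgeR). Ppfibp1, a partner of S100A4, was higher in HFD (0.38, adjusted p = 0.00942, edgeR) below the fold needed for a call. Anxa2, Anxa1, Cacybp, Myh9 and Ahnak did not pass in either diet, with log2 fold changes from -0.13 to 0.09.

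Plasminogen activation, the reaction that the S100A10 and annexin A2 complex assists at the cell surface, was read from a short list of genes. In ND 4 of them were called higher, where 3.55% of all genes were. In the same ND ARM libraries 10 of 12 fibroblast and progenitor and 5 of 8 mesothelial markers were called higher, against 5 and 0 in HFD, and their part in the values of this list was not tested. Plat, tissue plasminogen activator, was at 7.81 and 11.9 CPM in ND ARMs against 3.37 and 3.84 CPM in ND SMs (1.45, adjusted p = 0.00181), and Plaur, the urokinase receptor, was at 145 and 145 CPM against 95.3 and 91.6 CPM (0.63, adjusted p = 0.000831). Serpinb2 (0.63), the gene of an inhibitor of plasminogen activators, and Plau (0.59) were also called. The count of 4 therefore gives no direction for the reaction. In HFD none was called and 2 of those read here passed the adjusted p alone, Plau (0.26) and Plaur (0.24), by edgeR on the log2 scale. S100a10 and Anxa2 did not pass the test in either diet. Of the 6 phagocyte NADPH oxidase genes, the enzyme that S100A8 and S100A9 help assemble, none was called. Of all genes, 4.46% and 3.55% were called higher in HFD and ND, and 0.292% and 0.129% lower. Ncf1 was lower in HFD ARMs (-0.24, adjusted p = 0.0340, edgeR).

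**Figure D4:**
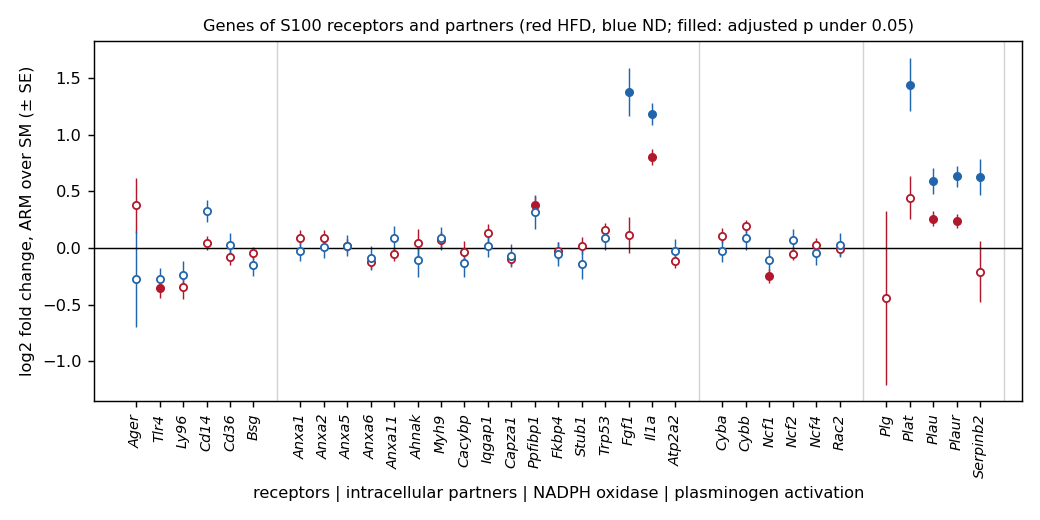
Log2 fold change of ARM over SM with standard error for receptors, intracellular partners, NADPH oxidase and plasminogen activation genes, in HFD (red) and ND (blue), filled where the adjusted p was under 0.05. Il1a is filled and above 0 in both diets, and Plat, Plau, Plaur and Serpinb2 are filled above 0 in ND.

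Values between diets are given without a test, because the HFD and ND tables were made in different ways and diet and table cannot be told apart. On the CPM scale, S100a4, S100a6, S100a10, S100a11 and S100a13 had every HFD library above every ND library in both ARMs and SMs, 5 of 8 members each, where 36.5% and 37.5% of all genes did so. The log2 ratio of mean CPM, HFD over ND, was 0.70 in ARMs and 0.49 in SMs for S100a4, 0.88 and 0.71 for S100a6, 0.74 and 0.76 for S100a10, 0.73 and 0.93 for S100a11 and 0.44 and 0.30 for S100a13. S100a1 was lower in HFD, with -0.14 and -0.11. Every HFD library was below every ND library for S100a1 in ARMs, 1 member against 35.5% of all genes, and for S100a1, S100a8 and S100a9 in SMs, 3 members against 33.8%. In SMs the calprotectin pair was far lower in HFD, with a log2 CPM ratio of -2.75 for S100a9 and -2.30 for S100a8, while in ARMs the libraries of the 2 diets overlapped (-0.48 and -0.20).

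On the FPKM scale the ratios of all 8 genes were lower. The log2 FPKM ratio in SMs was 0.02 for S100a4 and -0.03 for S100a13, with overlapping libraries, and 3 members rather than 5 had every HFD library above every ND library (27.4% of all genes), with 3 below (46.4%). In ARMs 5 were above (28.5%) and 1 below (43.2%). The gene length that FPKM implies differed between the tables by 1.22 to 1.49 times for the members, against a median of 1.06 over 8674 genes and 1.32 for the 152 genes under 500 bases. The size of a diet ratio for these short genes therefore depended on the scale.

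**Figure D5:**
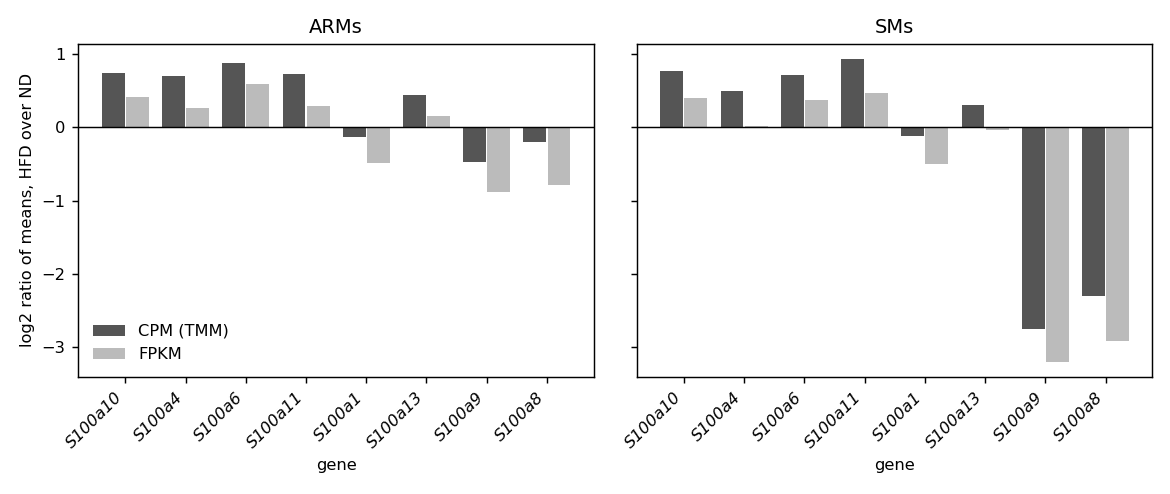
Log2 ratio of the 2-library means, HFD over ND, for each member in ARMs (left) and SMs (right), from TMM-normalized CPM (dark) and from deposited FPKM (light), with no error bars. The light bars lie below the dark bars for every member, and S100a9 and S100a8 in SMs have the lowest ratios.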

How the data were processed

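RNA-seq of 8 libraries (2 per group) was analysed from the tables the authors deposited, 1 for each diet. Both hold estimated counts, FPKM and TPM per gene. The submitters' processing notes name mm10. The aligner, counter, annotation and strand setting were not given in the sources used here. The deposited estimated counts were not whole for 32.3% to 32.9% of HFD values and 8.55% to 9.36% of ND values, so they were rounded. FPKM deposited by the authors was used for levels between genes and for limma, and TPM deposited by the authors for 1 diet alternative.

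The HFD and ND tables were fitted apart with edgeR 4.0.16 in R 4.3.3 (TMM, filterByExpr, quasi-likelihood test) over 13337 and 12441 genes, with Benjamini-Hochberg adjustment over all genes tested. Calls needed a fold over 1.5 and an adjusted p under 0.05. Diets were set against each other by the interaction term over 13358 genes. The biological coefficient of variation was 5.55% in HFD and 8.61% in ND. The fits were tested on simulated counts. Alternatives used DESeq2 1.42.0, limma 3.58.1 on log2(FPKM + 1) and log2(FPKM + 0.1), other scalings and filters, the thresholds of the study's methods, a replicate block, and leaving out each library.

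Named genes were all 8 members, other S100 genes with an entry, listed partners and receptors, defining neutrophil and monocyte markers, genes called in a list (at most 4), and the 3 genes most like S100a8 and S100a9. The members and 17 lists were chosen with earlier results of these data known. Of the plasminogen list, 1 gene is not reported here. Promoter windows came from RefSeq.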

Additional observations from a re-analysis of the deposited data

Results flagged for a closer look

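Among the S100, receptor, partner, NADPH oxidase, plasminogen, neutrophil and monocyte genes in the 8-library fit, both ARM libraries lay above both SM libraries in HFD and below both in ND for 5, which is why they are listed. The ARM against SM log2 change in HFD less that in ND was 2.12 for S100a8 (adjusted p = 0.423), 2.29 for S100a9 (adjusted p = 0.104), 2.29 for the neutrophil collagenase gene Mmp8 (adjusted p = 0.737), 0.99 for Cxcr2 (adjusted p = 0.643) and 1.74 for Plac8 (adjusted p = 0.219), by edgeR's interaction test with Benjamini-Hochberg adjustment. None passed. Mmp8 had 0 to 13 counts per library. The same change of side was seen outside the lists searched. The macrophage marker Fcgr1 had log2 fold changes of 0.13 in HFD and -0.16 in ND, and the mast cell marker Cma1 had 0.45 and -0.50. Taken by diet, 26.2% of all genes tested had both ARM libraries above in HFD, and 22.8% had both below in ND. The share of all genes with this change of side was not counted, so the pattern is not shown to be particular to the genes listed.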

How the results depend on the processing

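In HFD the number of members called, 0, became 1 with at least 10 counts in every library, 1 under the thresholds of the study's methods, 1 with limma on log2(FPKM + 1) and 2 with limma on log2(FPKM + 0.1). The number past adjusted p alone, 2, became 0 with no filter, 0 in one fit of all 8 libraries and 0 with limma and no filter. It became 3 with at least 10 counts in every library and 4 with either other limma fit. In ND the number called, 1, became 2 with no filter, 2 under the methods' thresholds and 0 in the 3 limma fits, with 1 to 2 when a library was left out. The number past adjusted p, 3, became 4 with no filter, 4 with the replicate block and 0 in the 3 limma fits. For the difference between diets, 0 became 1 with DESeq2 and ranged from 0 to 2 when a library was left out. The number of members higher in HFD SMs, 5, became 3 on the FPKM scale. Over the partner, receptor and marker lists, the count called higher in HFD fell from 34 to 21 and the count lower in ND rose from 0 to 4 with no filter. The difference between diets changed sign for S100a1 (from -0.022 to 0.028 with library totals and 0.012 with limma, and -0.079 to 0.036 over the fits with a library left out) and for S100a10 (from -0.023 to 0.026 and 0.025, and -0.18 to 0.21). The cause of these changes was not tested. ND ARM and SM counts of S100a8, 7 to 57, limit its precision.

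Same-numbered libraries deviated with r = -0.03 in HFD and 0.22 in ND, and the labels do not say that a number marks a shared pool or day. With the replicate block, 2 members were called in ND and 1 differed between diets (S100a9, adjusted p = 0.0182). S100a8 in ND then had adjusted p = 0.000218, by edgeR.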

Other observations

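The promoter window of S100a11 held 2 matches to TGANTCA, at -136 and -38 from the start, a string found in 7.81% of all 32851 windows. Of the 2 S100a16 windows, 1 held it, at -192.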
